A study of Mus musculus with 6 samples.

Results

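The imprinted growth genes examined here are 10 genes of which normally only the copy from 1 parent is active and which are known for their effects on growth before birth. They were chosen by gene name. Of the 10, 8 carried their name in the deposited table and 1, Peg10, was found by its Ensembl identifier, ENSMUSG00000092035, which the table lists under the name AC084315.1; H19 was not analysed here. These 9 are among 21553 genes with values, and 8 of them were tested, Phlda2 being below the minimum level. The 6 libraries each hold RNA of both kidneys of 1 mouse embryo taken at E13.5. In the first group 3 embryos were homozygous mutant for Fat4 (Fat4-/-), a giant atypical cadherin, and in the second 3 were wildtype (Fat4+/+). The labels give the strain of all embryos as C57BL6/6 backcrossed 6 times, the source as a single pregnant female, and no treatment. They name no Cre driver, so which cells of the kidney lack Fat4 is not restricted by the labels, and the p-values measure the spread between embryos of 1 litter.

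Genomic imprinting marks a gene by DNA methylation in the egg or sperm, so that in the embryo the maternal and paternal copies are used unequally. Several imprinted genes lie in clusters that share a control region. As a broad rule genes active from the paternal copy favour growth of the embryo, and genes active from the maternal copy restrain it. Of the 9 genes, 6 are known to be expressed from the paternal copy (Mest, Peg3, Plagl1, Dlk1, Ndn and Peg10) and 3 from the maternal copy (Cdkn1c, Phlda2 and, outside the brain, Grb10). The values here add both copies together and do not tell them apart.

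RefSeq start sites on GRCm38.p6 were held for 7 of the 10 genes, with 10 starts in all. The 250 bases before a start are shown for 4 genes on which the description below turns, with each CpG, the pair of bases at which mammalian DNA is methylated, in capitals. They are Mest, the highest of the genes, Phlda2, the lowest, Peg3, with the smallest p-value, and Dlk1, with the widest spread between embryos. Of the 3 starts held for Mest, the first of the pair 3 bases apart, whose windows overlap, is shown.
Mest, chr6:30737800-30738049, plus strand: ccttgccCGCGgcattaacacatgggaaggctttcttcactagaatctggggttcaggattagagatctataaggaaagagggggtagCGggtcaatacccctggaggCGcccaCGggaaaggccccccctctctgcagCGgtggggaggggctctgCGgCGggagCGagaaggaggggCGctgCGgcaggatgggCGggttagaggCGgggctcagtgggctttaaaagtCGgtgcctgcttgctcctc
Peg3, chr7:6730420-6730669, minus strand: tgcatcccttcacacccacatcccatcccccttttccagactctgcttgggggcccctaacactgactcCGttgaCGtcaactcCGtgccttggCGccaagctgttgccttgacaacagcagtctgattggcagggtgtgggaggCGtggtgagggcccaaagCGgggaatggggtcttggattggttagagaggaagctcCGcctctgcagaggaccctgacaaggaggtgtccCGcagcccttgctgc
Dlk1, chr12:109452573-109452822, plus strand: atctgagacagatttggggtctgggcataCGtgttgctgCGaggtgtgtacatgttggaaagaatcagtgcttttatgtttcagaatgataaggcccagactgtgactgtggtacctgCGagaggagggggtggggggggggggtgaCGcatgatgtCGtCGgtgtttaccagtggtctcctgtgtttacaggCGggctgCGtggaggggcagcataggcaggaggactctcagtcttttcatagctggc
Phlda2, chr7:143502525-143502774, minus strand: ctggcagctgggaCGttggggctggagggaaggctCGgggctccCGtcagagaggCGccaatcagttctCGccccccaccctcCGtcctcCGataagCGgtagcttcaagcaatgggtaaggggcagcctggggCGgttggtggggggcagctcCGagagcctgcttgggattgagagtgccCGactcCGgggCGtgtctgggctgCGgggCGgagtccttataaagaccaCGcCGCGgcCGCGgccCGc
The window of Phlda2 holds 21 CpGs, that of Mest 14, and those of Peg3 and Dlk1 8 each, against a median of 6 over the 32851 starts in the table. At least as many CpGs as in the Phlda2 window were found in 16.3% of all starts, as many as in the Mest window in 29.4%, and as many as in the Peg3 and Dlk1 windows in 43.0%. The separate start of Mest, outside the overlapping pair, held 7 CpGs, and at least as many were found in 46.3% of all starts. Among the other members, the 2 starts of Grb10 held 40 and 8 CpGs, the start of Plagl1 19 and that of Ndn 5. The letters TATAAA, the core of a TATA box, were searched on both strands. They occur on the gene's strand in the Phlda2 window and in none of the other 9 windows on either strand, against 12.4% of all starts on either strand. These counts describe the letters of the windows, since methylation was not measured.

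All 9 genes were detected in every library, and 8 of them at 36.90 cRPKM or more. This unit stands for reads per kilobase relative to the mapped reads of a library, with a correction by the authors. Because this scale is per length, levels can be set side by side between genes. Mest, which encodes a hydrolase-like protein of embryonic mesoderm (chromosome 6, 30723547 to 30748465), was at 1069.05, 1075.53 and 1008.48 cRPKM in the wildtype embryos, against 1101.52, 1130.50 and 1161.37 cRPKM in the mutants. By its mean over the 6 libraries it ranked 46 of all genes. Cdkn1c, an inhibitor of cyclin-dependent kinases that brings cells out of the cell cycle, followed at rank 131 and Grb10, an adaptor that dampens signalling from the insulin and insulin-like growth factor receptors, at rank 139. The ranges of Cdkn1c and Grb10 over the libraries overlapped. Peg3, a zinc finger protein, ranked 328 and Plagl1, a zinc finger transcription factor that acts on other imprinted genes, 426. Their ranges, 159.42 to 198.26 and 128.69 to 159.94 cRPKM, touched. Dlk1, a transmembrane relative of the Notch ligands, and Ndn, a growth-restraining protein of the MAGE family, ranked 1192 and 1205 with overlapping ranges. Peg10, derived from a retrotransposon and needed for the placenta, ranked 2210, and all its values lay below those of Dlk1. Phlda2, which restrains growth of the placenta, ranked 12354 at about 1 cRPKM. The 9 genes together made up 0.447% to 0.471% of the summed cRPKM in the wildtype libraries and 0.478% to 0.508% in the mutant libraries, with Mest the largest part. Before division by the library sums the groups overlapped, at 2116.2 to 2337.6 cRPKM in wildtype and 2331.9 to 2430.2 cRPKM in mutant libraries.

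**Figure D1:**
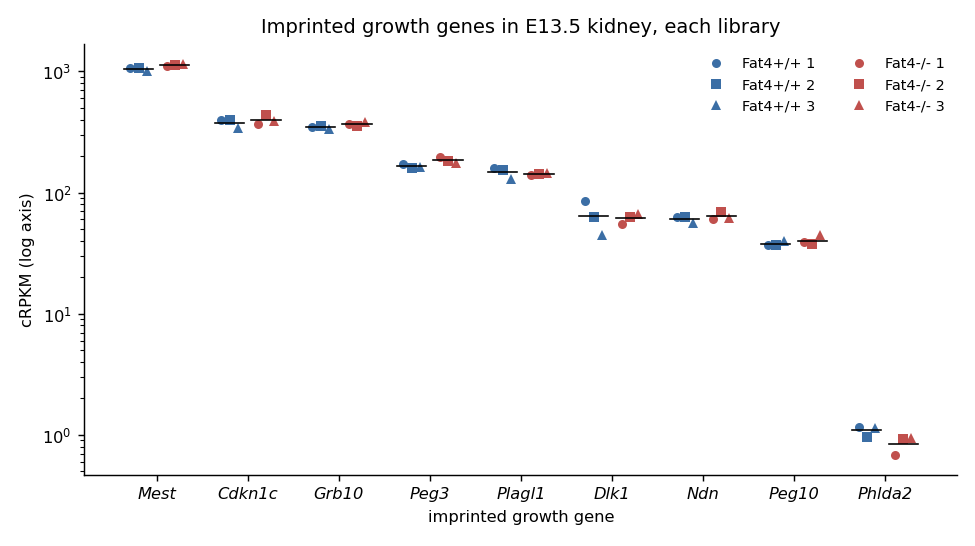
cRPKM of the 9 imprinted growth genes on a log axis, 1 point per library (circle, square and triangle for embryos 1, 2 and 3, blue wildtype, red mutant), with black bars at the group means. Mest lies highest and Phlda2, near 1 cRPKM, lowest, and the blue and red points of a gene lie close together.

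The labels were checked on Fat4 itself, which was at 16.74, 15.69 and 16.83 cRPKM in the wildtype embryos, against 7.82, 7.20 and 7.49 cRPKM in the mutants. The labels do not say which part of the gene the mutation removes. Markers of the kidney were present in all libraries, with Ret of the ureteric bud at 12.49 to 17.25 cRPKM and Foxd1 of the stroma at 36.36 to 48.28 cRPKM. Of 6 adrenal cortex markers 4 were under 1 cRPKM in every library, as were 8 of 10 skeletal muscle markers, 5 of 6 gonad markers and all 5 liver markers. The remaining adrenal markers, Star and Mc2r, were present in all libraries, at 1.81 to 2.08 and 2.49 to 3.02 cRPKM. The summed cRPKM of a library was 473695 to 503223, and read totals are unknown. Judged by the steps between low values, the libraries came out at 0.904 to 1.04 times the depth of wildtype embryo 1. Only factors close to 1 were searched, so a larger difference in depth could not have been found. The best factor accounted for between 17 of 35 low genes (wildtype embryo 3) and 22 of 32 (mutant embryo 2). The 4 Y-linked genes summed to 65.27 to 72.97 cRPKM in wildtype embryos, and 69.60 in mutant embryo 1, against 0.08 and 0.15 in mutant embryos 2 and 3; the sexes were thus not balanced over the genotypes.

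Loss of Fat4 was compared with wildtype to ask whether the level of these genes differs between the genotypes. None of the 8 tested members passed (limma, adjusted p under 0.05), against 1.43% of 12315 tested genes (0.552% higher and 0.877% lower), and 1 of 8 had an unadjusted p under 0.05, against 13% of all (1607 genes). The smallest adjusted p was 0.242, for Peg3. The members' log2 fold changes, mutant minus wildtype on the scale of log2(cRPKM + 1), ran from -0.04 to 0.17 with a median of 0.08, and 6 were above 0 and 2 below. Over all tested genes the median was -0.01 and 43.2% lay above 0. The median of the members was 0.05 without wildtype embryo 3, 0.11 without wildtype embryo 1 and 0.10 without wildtype embryo 2. With the level of the Y-linked genes as a covariate it was 0.03. In the fit with this covariate the genotype difference rests almost wholly on mutant embryo 1, the only mutant embryo with Y-linked expression. The same holds wherever the covariate is used below. In 3 of the 8, Peg3, Mest and Grb10, every mutant value lay above every wildtype value, which was so for 7.23% of tested genes; for 1 gene, an exact permutation of 3 against 3 embryos has 0.1 as its smallest 2-sided p. Since whole kidneys were sequenced, fewer cells of a type and less RNA per cell cannot be told apart.

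**Figure D2:**
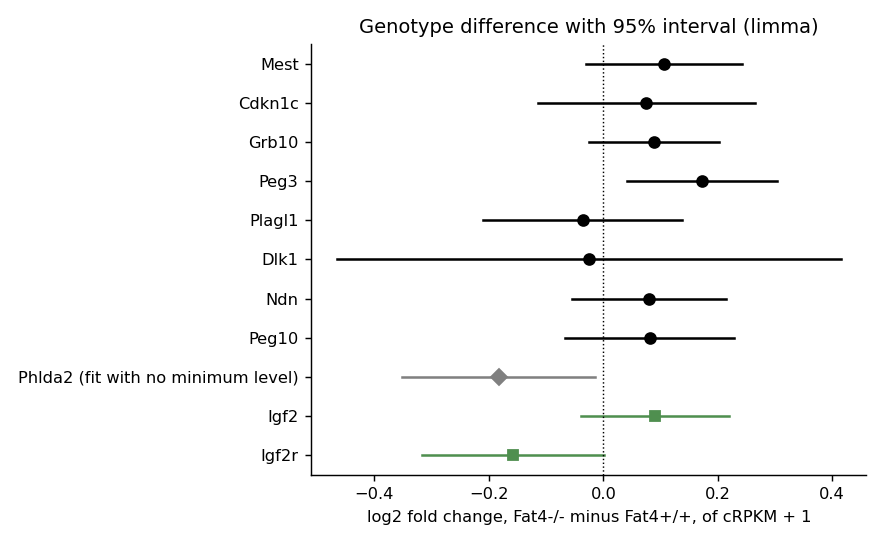
Log2 fold change, mutant minus wildtype, with 95% interval from limma for the 8 tested genes (black), for Phlda2 in the fit with no minimum level (grey diamond) and for Igf2 and Igf2r (green squares). The intervals of Peg3 and Phlda2 lie to 1 side of 0 before adjustment, and that of Dlk1 is the widest.

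Among the genes of the paternal copy, Peg3 (chromosome 7, 6703892 to 6730431) came closest to the threshold. It was at 173.17, 159.42 and 161.38 cRPKM in the wildtype embryos, against 198.26, 182.68 and 176.17 cRPKM in the mutants. All mutant values lay above the wildtype values, but the lowest mutant embryo was only just above the highest wildtype embryo. The means were 165 ± 7.44 and 186 ± 11.4 cRPKM (SD, n = 3), a log2 fold change of 0.17 by limma (adjusted p = 0.242, SE 0.0571) and a 95% interval of 1.03- to 1.23-fold before adjustment. The highest value came from mutant embryo 1, the mutant library with Y-linked expression. With that embryo alone set against the wildtype libraries the log2 fold change was 0.27. The fit with the Y-linked level as a covariate gave 0.27 as well (limma, adjusted p = 0.503). Since that fit rests almost wholly on the same embryo, it is not a second check. Peg3 stayed above 0 in all 17 alternatives, with 0.0751 as its lowest adjusted p (limma).

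The 5 genes whose profile over the 6 libraries was nearest to that of Peg3 were Emr1, Naaa, Tmtc2, Fam169a and Cacna2d1. The root mean square difference between centred profiles of log2(cRPKM + 1) was 0.0176 for Emr1 and up to 0.0394 for Cacna2d1. Emr1, a macrophage surface receptor, was at 1.45, 1.27 and 1.29 cRPKM in the wildtype embryos, against 1.75, 1.54 and 1.53 cRPKM in the mutants. None of the 5 passed the test, and the lowest adjusted p among them was 0.0979, for Tmtc2. Zim1, a neighbour of Peg3 in its cluster and itself imprinted, was also highest in mutant embryo 1, at 14.41 cRPKM, but its wildtype values of 13.65, 10.75 and 11.26 overlapped the mutant ones (log2 fold change 0.08, adjusted p = 0.801).

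Mest was higher in each mutant library than in any wildtype library, at a mean of 1131 ± 29.9 against 1051 ± 37.0 cRPKM (SD, n = 3). The log2 fold change of 0.11 did not pass (SE 0.0594, adjusted p = 0.516), and its 95% interval ran from 0.979- to 1.18-fold. The gene next to it, Copg2, part of the coat of transport vesicles and overlapping the end of Mest on the other strand, was at 33.72 to 34.92 cRPKM in the wildtype embryos, against 34.46 to 35.26 cRPKM in the mutants. No source used here says whether counting used the strand, so reads where the genes overlap cannot be told apart.

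Plagl1 (chromosome 10, 13060504 to 13131694) was at 159.94, 152.38 and 128.69 cRPKM in the wildtype embryos, against 140.30, 141.73 and 146.32 cRPKM in the mutants. The mutant values lay together inside the wildtype range, with means of 147.0 ± 16.3 in wildtype and 142.8 ± 3.15 cRPKM in mutant embryos (SD, n = 3) and a coefficient of variation of 2.20% against 11.1% in wildtype. Its log2 fold change was -0.04 (SE 0.0760, adjusted p = 0.892, interval 0.865- to 1.10-fold), and was -0.13 without wildtype embryo 3 (adjusted p = 0.338) and 0.03 without wildtype embryo 1 (adjusted p = 0.978).

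Ndn (chromosome 7, 62346569 to 62350262) was at 62.32, 62.31 and 56.61 cRPKM in the wildtype embryos, against 61.00, 68.67 and 62.10 cRPKM in the mutants. The groups overlapped, with means of 60.4 ± 3.29 and 63.9 ± 4.15 cRPKM (SD, n = 3), and the log2 fold change was 0.08 (adjusted p = 0.640, interval 0.962- to 1.16-fold). Peg10 (chromosome 6, 4747306 to 4760517) was at 36.90, 37.01 and 39.54 cRPKM in the wildtype embryos, against 38.86, 37.33 and 44.26 cRPKM in the mutants. Here mutant embryo 3 stood above the other 5 libraries. The means were 37.8 ± 1.49 and 40.15 ± 3.64 cRPKM (SD, n = 3), and the log2 fold change was 0.08 (adjusted p = 0.665, interval 0.955- to 1.17-fold). Sgce, which encodes a sarcoglycan, starts beside Peg10 and is also expressed from the paternal copy, was at 9.13 to 10.01 cRPKM in the wildtype embryos, against 8.45 to 8.68 cRPKM in the mutants. Its mutant values were below all wildtype values, but it did not pass (log2 fold change -0.12, adjusted p = 0.338).

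Dlk1 (chromosome 12, 109452823 to 109463336) varied most between embryos. It was at 84.81, 63.29 and 44.76 cRPKM in the wildtype embryos, against 55.11, 62.48 and 66.24 cRPKM in the mutants, so that all mutant values fell inside the wildtype range. The means were 64.3 ± 20.0 and 61.3 ± 5.66 cRPKM (SD, n = 3). Its coefficient of variation was 31.2% in wildtype and 9.24% in mutant libraries, and 99.1% of tested genes had a smaller residual SD. The log2 fold change was -0.03 (SE 0.192, adjusted p = 0.975), with an interval of 0.724- to 1.33-fold, so that differences inside it were not detectable. The value depended on single embryos, at 0.20 without wildtype embryo 1 and -0.26 without wildtype embryo 3 (adjusted p = 0.814 and 0.406), and was -0.16 with the Y-linked level as a covariate.

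Some genes of the extracellular matrix had a like order among the wildtype embryos; these were picked for comparison after their values were seen. The proteoglycan gene Dcn was at 36.47, 19.07 and 13.93 cRPKM and the periostin gene Postn at 77.85, 49.51 and 34.95 cRPKM in wildtype embryos 1, 2 and 3, the order of Dlk1. Dcn also stands in the wider list of imprinted genes below. The proteoglycan gene Lum, at 15.18, 5.58 and 6.16 cRPKM, was likewise highest in wildtype embryo 1 but did not keep the order of Dlk1 in the other two. In mutant libraries Dcn was at 14.38 to 15.51 and Postn at 38.14 to 43.49 cRPKM. Over all 9 stromal markers the summed level was 529.97 to 776.75 cRPKM in the wildtype embryos, against 541.02 to 582.85 cRPKM in the mutants, again with the extremes in wildtype embryos 1 and 3, and none was at 0. Most of this sum comes from the matrix genes picked above with Col1a1 and Col3a1, and the other stromal markers did not keep the order of Dlk1. Among the wildtype embryos the transcription factor genes Foxd1, at 43.33, 46.16 and 36.36 cRPKM, and Meis1, at 50.84, 52.91 and 44.16 cRPKM, were highest in embryo 2. Pdgfrb, a growth factor receptor gene, was highest in embryo 3, at 27.09, 26.13 and 28.55 cRPKM. Of the 9, 1 passed, downwards: Pdgfra, a related receptor gene, was at 43.97, 39.81 and 41.85 cRPKM in the wildtype embryos, against 30.37, 29.67 and 29.21 cRPKM in the mutants (limma, adjusted p = 0.00427). Skeletal muscle, another tissue in which Dlk1 is known to be expressed in embryos, left low traces that were highest in wildtype embryo 1. The 10 muscle markers summed to 5.23 cRPKM in wildtype embryo 1 and to 0.78 to 1.47 in the other 5, with the embryonic myosin gene Myh3 at 1.38 against 0.03 to 0.20 cRPKM. The part of stroma or muscle in the spread of Dlk1 was not tested.

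**Figure D3:**
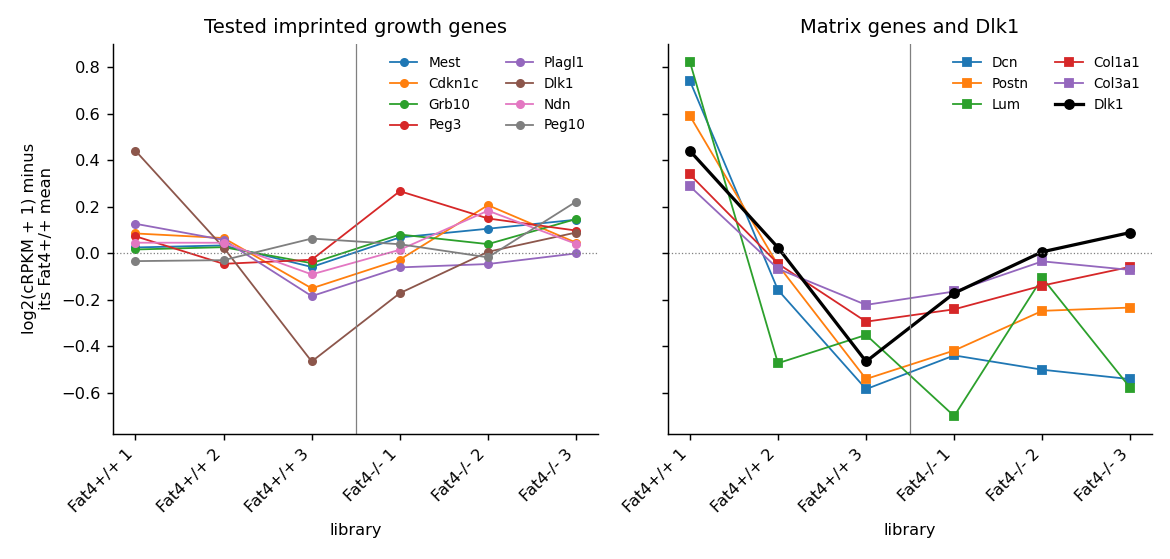
Difference of log2(cRPKM + 1) from the wildtype mean in each library, for the 8 tested genes (left) and for 5 matrix genes with Dlk1 in black (right); lines join the values of 1 gene and imply no order of the embryos. Wildtype embryo 1 is highest for Dlk1 and the matrix genes, and wildtype embryo 3 is the lowest library for 6 of the 8 genes on the left.

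Of the genes of the maternal copy, Cdkn1c (chromosome 7, 143458339 to 143461050) was at 399.37, 393.93 and 338.90 cRPKM in the wildtype embryos, against 369.28, 434.60 and 388.54 cRPKM in the mutants. The groups overlapped, with the lowest value in wildtype embryo 3 and the highest in mutant embryo 2. The means were 377 ± 33.5 and 397 ± 33.6 cRPKM (SD, n = 3), and the log2 fold change was 0.08 (SE 0.0829, adjusted p = 0.773, interval 0.924- to 1.20-fold). It was -0.03 with the Y-linked level as a covariate, and its sign changed in 3 of 17 alternatives. The related inhibitors Cdkn1a and Cdkn1b, which are not imprinted, were far lower, at 3.83 to 4.41 and 10.11 to 11.31 cRPKM over the 6 libraries, and did not pass (adjusted p = 0.707 and 0.716). Cdkn1c is known as a marker of podocytes, the filtering cells of the glomerulus. Of 5 tested podocyte markers none passed, but all had an unadjusted p under 0.05, 4 of them downwards and 1 upwards. Tcf21, a transcription factor gene, was at 90.69, 88.26 and 85.81 cRPKM in the wildtype embryos, against 69.02, 79.03 and 72.41 cRPKM in the mutants (limma, log2 fold change -0.26, adjusted p = 0.0660). Wt1, the largest of the other markers and also expressed in nephron progenitors, lay in the opposite direction, at 62.74, 66.34 and 64.88 cRPKM in the wildtype embryos, against 71.24, 74.72 and 72.33 cRPKM in the mutants (limma, log2 fold change 0.17, adjusted p = 0.0940). The part of podocytes in the level of Cdkn1c was not tested.

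Grb10 (chromosome 11, 11930508 to 12038683) varied least of the members among the wildtype libraries, with a coefficient of variation of 2.57%. It was at 350.84, 353.27 and 336.75 cRPKM in the wildtype embryos, against 366.91, 356.53 and 384.30 cRPKM in the mutants. All mutant values lay above all wildtype values, by a margin between the nearest pair that was smaller than the spread within either group. The means were 347 ± 8.92 and 369 ± 14.0 cRPKM (SD, n = 3). The log2 fold change was 0.09 (SE 0.0496, adjusted p = 0.513, interval 0.983- to 1.15-fold).

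Phlda2 (chromosome 7, 143501545 to 143503150) had a mean just under the minimum of 1 cRPKM and was not tested with the others. It was at 1.17, 0.97 and 1.14 cRPKM in the wildtype embryos, against 0.68, 0.92 and 0.94 cRPKM in the mutants, with all mutant values below all wildtype values and means of 1.09 ± 0.108 and 0.847 ± 0.145 cRPKM (SD, n = 3). Without a minimum level its log2 fold change was -0.18 (SE 0.0700, adjusted p = 0.369 over the genes above 0 in at least 1 library), and the lowest value came from mutant embryo 1. Its neighbour Slc22a18, a transporter gene of the same maternal cluster, was at 1.42, 1.55 and 1.55 cRPKM in the wildtype embryos, against 1.13, 1.25 and 1.44 cRPKM in the mutants, where the groups overlapped (log2 fold change -0.14, adjusted p = 0.450).

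Across members, wildtype embryo 3 was the lowest of the 6 libraries for 6 of the 8 tested genes (all but Peg3 and Peg10), while it was the lowest for 16.1% of all tested genes. The count was made after the values were seen. This library also had the lowest summed cRPKM. When each library was scaled by its median ratio over the tested genes, it was again the lowest for 6 of the 8, and for 17.0% of all tested genes. Erythroid markers were lowest there too, summing to 655.80 cRPKM while the range elsewhere was 861.29 to 1349.20, and ureteric markers were highest, at 181.31 against 148.74 to 160.32 cRPKM. The nephron progenitor markers, of which Eya1, Osr1 and Meox2 passed upwards in the mutant libraries among 8 tested, summed to 264.45 cRPKM in wildtype embryo 3, to 288.62 and 308.98 in wildtype embryos 1 and 2, and to 329.32 to 371.80 in the mutants. Much of the low sum in wildtype embryo 3 comes from Crym, at 43.80, 44.94 and 23.80 cRPKM in wildtype embryos 1, 2 and 3. Among the wildtype embryos Cited1, Osr1, Meox1 and Meox2 were also lowest in embryo 3, by smaller margins. Six2, at 88.16, 102.74 and 89.18 cRPKM, Eya1, at 33.53, 36.04 and 33.67 cRPKM, and Itga8 were not. The part of these marked cell types in the members' levels was not tested.

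Igf2, the fetal growth factor that shares its control region with H19, was the second most abundant of the imprinted genes listed here, at 611.77, 632.56 and 586.56 cRPKM in the wildtype embryos, against 633.88, 635.78 and 678.73 cRPKM in the mutants (log2 fold change 0.09, adjusted p = 0.574). Igf2r, the receptor that clears Igf2 and is expressed from the maternal copy, was at 47.32, 42.52 and 49.20 cRPKM in the wildtype embryos, against 42.32, 37.99 and 44.05 cRPKM in the mutants. Its groups overlapped and it did not pass (log2 fold change -0.16, adjusted p = 0.388).

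A wider list held 74 genes that are imprinted or lie in imprinted clusters, not all of them imprinted in kidney. Of these 64 had values and 45 were tested; Meg3 was not analysed here. None passed. Of the 45, 3 had an unadjusted p under 0.05 upwards and 1 downwards (limma), against 13% of all tested genes in either direction. The median log2 fold change was -0.01, equal to that of all tested genes to 2 decimals. The groups did not overlap for 11 of the 45, against 18.2% of all tested genes. In the cluster of Ndn, 2 of 5 tested genes had an unadjusted p under 0.05 (limma), both upwards, against 13% of all tested genes in either direction. The log2 fold changes of the 5 ran from -0.15 to 0.19, with 3 above 0 and 2 below. Atp10a, a lipid flippase, was at 3.94 to 3.97 cRPKM in the wildtype embryos, against 4.27 to 4.85 cRPKM in the mutants (log2 fold change 0.19, adjusted p = 0.181). Peg12, an intronless relative of the Frat genes, was at 13.44 to 13.53 cRPKM in the wildtype embryos, against 14.21 to 15.99 cRPKM in the mutants (log2 fold change 0.14, adjusted p = 0.250). Trappc9, from an imprinted cluster elsewhere, was at 11.00 to 11.80 cRPKM in the wildtype embryos, against 12.61 to 12.94 cRPKM in the mutants (log2 fold change 0.14, adjusted p = 0.179). For these 3 genes the groups did not overlap, but the differences were small and did not pass.

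In the remaining clusters, Sgce apart, no tested gene had an unadjusted p under 0.05. The cluster of Dlk1 had 3 tested genes, with log2 fold changes from -0.01 to 0.01, among them Wars, a tRNA synthetase gene (adjusted p = 0.964), and Begain (adjusted p = 0.975). Rtl1 of this cluster, below the minimum level, was at 1.44, 1.10 and 0.62 cRPKM in the wildtype embryos, against 0.77, 0.91 and 0.96 cRPKM in the mutants. Within each group these low values kept the order of Dlk1. Dio3, also below the minimum, was at 0.35, 0.47 and 0.50 cRPKM in the wildtype embryos and did not. Whether Rtl1 varies with Dlk1 was not tested. Of the 4 tested neighbours of Grb10 and Plagl1, none passed and all were below 0, with a median of -0.14; Phactr2 was at -0.15 and Cobl at -0.14 (adjusted p = 0.530 and 0.532). Pon3, from the cluster of Peg10, was at -0.12 (adjusted p = 0.420) and Klf14, from that of Mest, at -0.01 (adjusted p = 0.976).

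**Figure D4:**
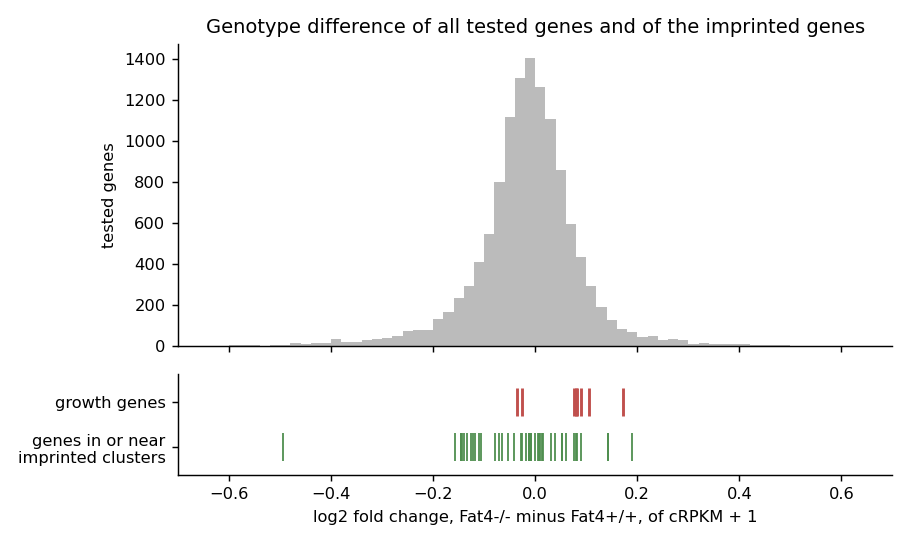
Histogram of the log2 fold change, mutant minus wildtype, of all tested genes (33 lie beyond the plotted range of 0.7 on either side), with 1 tick below for each of the 8 tested growth genes (red) and each of the 45 tested genes in or near imprinted clusters (green). All red ticks lie between -0.04 and 0.17, inside the bulk of the histogram.

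Factors that set or keep imprints were measured in the same libraries. Of 17 such genes 14 were tested, none passed or had an unadjusted p under 0.05, and log2 fold changes ran from -0.13 to 0.11. Zfp57, the zinc finger protein that guards imprints, was at 28.98 to 31.30 cRPKM in the wildtype embryos, against 27.76 to 29.30 cRPKM in the mutants (log2 fold change -0.09, adjusted p = 0.462). Tet2, an enzyme that oxidises methylated cytosine, was at 6.40 to 7.42 cRPKM in the wildtype embryos, against 5.76 to 6.61 cRPKM in the mutants (log2 fold change -0.13, adjusted p = 0.468). For both genes the ranges of the 2 groups overlapped.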

How the data were processed

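The authors deposited 1 table with an Ensembl identifier, a gene name and 1 column of RPKM values, in a corrected form named cRPKM, for each of the 6 libraries. Trimming of the reads is recorded per the file headers, and Bowtie and mm9 stand in the submitters' processing notes. The correction, the handling of shared reads and the strand are not given in the sources used here. Columns were matched to embryos by the header text in the labels.

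The genotype difference of log2(cRPKM + 1) was tested, 2-sided and with no other term, by limma 3.58.1 (lmFit and eBayes, trend on) under R 4.3.3. Genes had to average 1 cRPKM over the libraries, which 12315 did; Benjamini-Hochberg adjustment ran over all of them, with calls at 0.05. Fold changes on this scale understate the change of low genes. Intervals are for 1 gene at 95%, unadjusted.

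All 10 genes of the rule were looked for, and within each other list the genes named were those called, or else up to 2 with the smallest p, except that lists of cell markers are mostly given by their sums; Igf2, Igf2r and Fat4 were always named. Ret, Foxd1, Dcn, Postn, Lum, Col1a1, Col3a1, Meis1, Pdgfrb and Myh3 were added after their values were seen. So were Rtl1, Dio3, Crym, Six2, Cited1, Meox1 and Itga8. Genes and lists were chosen with earlier results of these data known. Positions are from GENCODE on GRCm38 and promoter sequences from RefSeq on GRCm38.p6, while the values refer to mm9. In all 17 other settings were tried, of which 1, leaving out mutant embryos 2 and 3, was chosen after seeing the data.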

Additional observations from a re-analysis of the deposited data

How the results depend on the processing

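No tested member passed in any of the 17 alternatives, nor did any other gene of the imprinted clusters. The number of all genes called, 176, was 32 with no minimum level, 109 with a minimum mean of 5 cRPKM, 273 with the embryo number as a block, 2 with the Y-linked level as a covariate and 4 without mutant embryos 2 and 3, the alternative added after the data were seen. Leaving out 1 library at a time gave 24 to 132 calls, with 71 when wildtype embryo 1 was missing and 34, 24 and 30 when mutant embryo 1, 2 or 3 was. No label says that embryos with the same number are pairs, so the main fit did not take them as such. Libraries with the same embryo number had deviations from their group means that correlated across genes at 0.0985, 0.205 and 0.277. Between different numbers the correlation ran from -0.373 to 0.227, the highest for wildtype embryo 1 with mutant embryo 2. These values do not decide whether the embryos are pairs. Under the block Peg3 had an adjusted p of 0.0751 and Igf2r of 0.0669 (limma). Mest, Grb10, Ndn, Peg10 and Peg3 stayed above 0 in all 17 alternatives, while Dlk1 changed sign in 2, Cdkn1c in 3 and Plagl1 in 1. With 3 embryos a group and unknown read totals, differences smaller than the intervals given were not detectable.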
